A study of Mus musculus with 4 samples.

Results

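The regions described here are the 4513 stretches of open chromatin that lay in gene deserts of the mouse genome, away from every protein-coding gene. Peaks of the 4 libraries that overlapped by 1 bp were merged into 185260 regions, of which 46698 held a peak of every library and are called common regions. A common region was kept as a desert region if it lay outside all protein-coding gene bodies and over 100 kb from any protein-coding gene start in GENCODE M21 (GRCm38), and 9.66% of the common regions passed. The member closest to a gene start lay 100.039 kb from it, and the farthest intergenic common region left out lay 99.997 kb from one. All libraries came from mice of the genotype Dlx6aCre;Sun1/sfGFP at postnatal day 30, in which a Cre recombinase under Dlx6a control, active in forebrain inhibitory neurons, turns on a GFP-tagged protein of the nuclear envelope. DAPI-positive, GFP-positive nuclei were sorted from cortex (2 libraries) or hippocampus (2 libraries) and profiled by single-nucleus ATAC-seq, in which a transposase cuts accessible DNA. The labels name no animals behind the replicate numbers, so p-values measure only the spread between these libraries, which may be technical.

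Gene deserts are long stretches of genome without protein-coding genes, and in developing and adult brain they are known to hold distal enhancers, which can act on distant promoters, as well as CTCF-bound sites and promoters of long non-coding RNAs. Accessibility of distal elements generally differs more between cell types than accessibility of promoters. In cortex and hippocampus, Lhx6, a LIM homeodomain transcription factor, marks inhibitory interneurons born in the medial ganglionic eminence (MGE), whereas Adarb2, a member of the RNA-editing adenosine deaminase family, marks many interneurons born in the caudal ganglionic eminence (CGE). Both genes were used here to sort nuclei within each library.

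The sequences below are the centers of 4 desert regions among those that differed most between nuclei leaning to Lhx6 and nuclei leaning to Adarb2. They are shown so that the letters can be set beside the values given for these regions later. They were read from GRCm38 on the plus strand, 5′ to 3′, over 300 bases in the middle of the part covered by a peak of all 4 libraries. Capitals mark matches, on either strand, to short sequence patterns searched in all regions: the homeodomain core TAATTA, the SOX core ACAATG, the E-box CAGATG, the AP-1 core TGANTCA, the nuclear receptor core AGGTCA and the MEIS core TGACAG. A match is a description of letters and not a shown binding site.
Between Rngtt and Cnr1, higher in Adarb2-leaning nuclei, chr4:33780582-33780881: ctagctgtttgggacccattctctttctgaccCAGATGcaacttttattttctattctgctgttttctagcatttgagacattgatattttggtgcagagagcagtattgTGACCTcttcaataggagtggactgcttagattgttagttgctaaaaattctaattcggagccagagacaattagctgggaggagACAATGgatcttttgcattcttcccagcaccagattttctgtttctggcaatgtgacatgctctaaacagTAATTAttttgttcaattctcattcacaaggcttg
Between Cldn23 and Prag1, higher in Adarb2-leaning nuclei, chr8:35933556-35933855: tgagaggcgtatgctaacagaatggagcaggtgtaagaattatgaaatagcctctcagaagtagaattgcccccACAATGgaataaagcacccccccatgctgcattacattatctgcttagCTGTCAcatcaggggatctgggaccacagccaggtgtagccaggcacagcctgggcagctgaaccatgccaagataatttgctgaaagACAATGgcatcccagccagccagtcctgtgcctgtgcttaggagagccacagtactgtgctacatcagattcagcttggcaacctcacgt
Between Cdh11 and Cdh5, higher in Lhx6-leaning nuclei, chr8:103144416-103144715: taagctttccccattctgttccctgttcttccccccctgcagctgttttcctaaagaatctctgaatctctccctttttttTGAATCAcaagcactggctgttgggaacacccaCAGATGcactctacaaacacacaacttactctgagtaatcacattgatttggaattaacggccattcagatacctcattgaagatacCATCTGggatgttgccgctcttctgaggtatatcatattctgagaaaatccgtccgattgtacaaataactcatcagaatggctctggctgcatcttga
Between Tmem64 and Calb1, higher in Lhx6-leaning nuclei, chr4:15635653-15635952: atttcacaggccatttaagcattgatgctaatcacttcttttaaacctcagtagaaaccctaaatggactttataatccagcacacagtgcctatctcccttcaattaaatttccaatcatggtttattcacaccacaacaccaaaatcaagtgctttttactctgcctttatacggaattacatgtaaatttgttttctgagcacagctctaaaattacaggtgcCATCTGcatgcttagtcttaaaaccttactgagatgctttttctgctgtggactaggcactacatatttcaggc
Both sequences higher in Adarb2-leaning nuclei held the SOX core, and neither of the sequences higher in Lhx6-leaning nuclei did. The sequence between Cdh11 and Cdh5 held the AP-1 core, and the E-box was in both sequences higher in Lhx6-leaning nuclei and in the one between Rngtt and Cnr1.

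The libraries held between 2355 and 5576 nuclei and between 29604580 and 92460997 cut sites in common regions, and cortex replicate 1 was the deepest per nucleus, with a median of 47236 cut sites against 7352 to 14917 in the others. Markers of inhibitory neurons were open in every library. The summed level of 8 pan-GABA genes was 1219 to 1701 CPM (cut sites scaled to the library's total in common regions), and that of 6 excitatory neuron markers was 32.8 to 59.2 CPM, with no common region at Emx1, Neurod2, Neurod6 and Tbr1. The oligodendrocyte-lineage list summed to 296 to 319 CPM, of which Mbp alone gave 151 to 208 CPM, with no common region at Mag, Mobp, Mog and Olig2. Between 5.99% and 23.7% of the nuclei of a library were low in pan-GABA accessibility, with the lowest share in the deepest library, cortex replicate 1. These nuclei had medians of 21128 and 5533.5 cut sites in common regions in cortex replicates 1 and 2. In hippocampus replicates 1 and 2 the medians were 3542.5 and 8272. The part of low depth in these shares was not tested. Any pair of libraries shared 11 to 47 barcodes.

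Most desert regions were narrow and weakly accessible. Their median width was 859 bp (interquartile range 674 to 1205 bp), and their median distance from the nearest protein-coding start was 214 kb, up to 2194 kb. In all, 2075 members lay between 100 and 200 kb from a start, 1876 between 200 and 500 kb, 472 between 500 and 1000 kb and 90 farther. All 20 chromosomes with members contributed, down to 31 members on chromosome X. Of the 4513 members, 2322 (51.5%) lay upstream of the nearest gene. The median normalized level over the 4 libraries was 9.91 CPM, with 90% of members between 4.39 and 29.5 CPM. The median member had 961 and 268 cut sites in the replicates of cortex and 541 and 370 in those of hippocampus, and was cut in 17.1% and 3.63% of cortical and 4.81% and 5.90% of hippocampal nuclei. These shares followed the depth per nucleus and do not compare accessibility between libraries.

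The median level of desert regions was close to that of common regions inside gene bodies and between genes nearer to starts, and was under that of promoters. In cortex replicate 1 the medians were 10.1 CPM for desert regions, 10.7 CPM in gene bodies, 10.4 CPM between genes within 100 kb of a start, and 37.9 CPM within 1 kb of a gene start. Desert status did not mean that the DNA was free of annotation. Of the members, 908 (20.1%) overlapped a gene of another type, 701 of them a lincRNA gene, and 300 lay within 1 kb of a non-coding gene start. Members near a non-coding start had a median level of 13.7 CPM against 9.74 CPM for the rest. In RefSeq, a separate annotation of the same build, 181 members (4.01%) were inside a protein-coding gene or within 100 kb of a start, and these were kept because the definition rests on GENCODE.

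**Figure D1:**
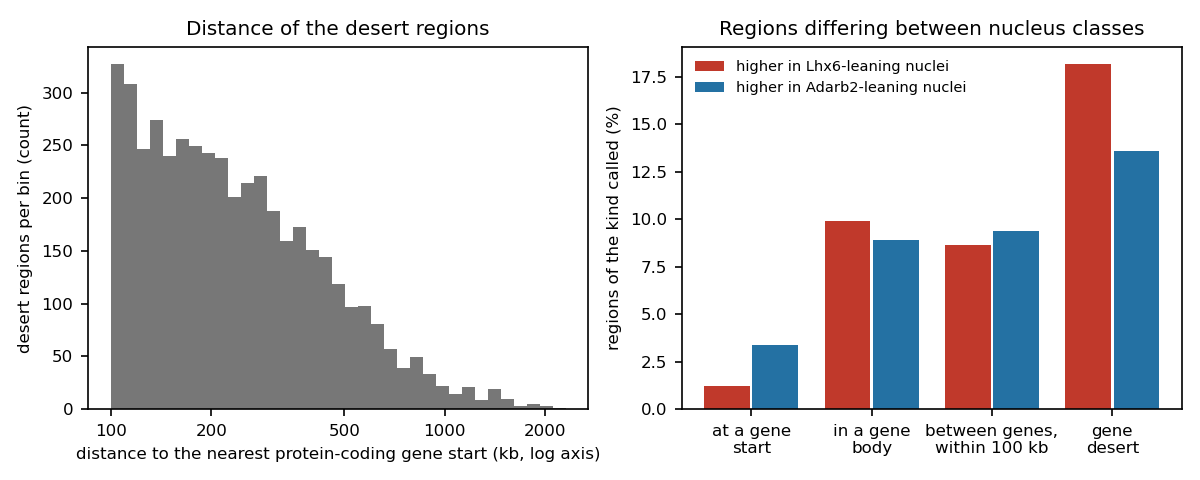
Left, number of desert regions by distance to the nearest protein-coding gene start (kb, log axis). Right, percent of common regions of 4 kinds with an adjusted p under 0.05 between Lhx6-leaning and Adarb2-leaning nuclei (red, higher in Lhx6-leaning; blue, higher in Adarb2-leaning). The desert regions had 18.2% and 13.6% and the gene starts 1.22% and 3.40%.

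The 6 most accessible desert regions were mostly starts of annotated non-coding transcripts. The highest by far was chr17:39842781-39849052, which overlaps an annotated ribosomal RNA sequence (CT010467.1) and the lincRNA genes Gm26917, Gm42418 and AY036118. Ribosomal RNA genes occur in many near-identical copies, so its reads cannot be placed with certainty. Its level was 3055 CPM and 4539 CPM in cortex and 3149 CPM and 5986 CPM in hippocampus, and it took 0.384% of all cut sites in common regions. The level differed more between replicates of a tissue than between tissues.

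The second, chr13:83717761-83734342, covered 16582 bp and the starts of the lincRNA genes C130071C03Rik and Gm26803, 214 kb from the start of Mef2c, which encodes a transcription factor of maturing neurons. Its level was 229 and 171 CPM in cortex and 231 and 244 CPM in hippocampus. The third, chr6:31215376-31222064, held the start of the lincRNA Lncpint between Klf14 and Mkln1, at 118 to 152 CPM across the libraries. The fourth, chr13:84343634-84350287, lay 121 kb from the start of Tmem161b, overlapped no annotated gene, and varied only from 134 to 138 CPM. The fifth, chr3:5860162-5861038, lay 109 kb from the start of Gm8797 at 89.4 to 184 CPM. The sixth, chr13:107888045-107891952, held the start of Zswim6, which GENCODE M21 lists as a processed transcript and RefSeq as protein-coding, at 78.9 to 132 CPM. In 5 of the 6 regions the levels of the tissues overlapped, the exception being the region near Mef2c, and none of the 6 was called between tissues.

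Desert regions differed widely between the nucleus classes. A nucleus was called Lhx6-leaning if its cut sites over Lhx6 exceeded, and those over Adarb2 fell short of, what its depth and the gene's share in its library give, and Adarb2-leaning if the reverse held. Desert regions lie in no protein-coding gene and took no part in this sorting. The Lhx6-leaning class held 673 and 641 nuclei of the cortex replicates and 1651 and 910 of the hippocampus replicates, and the Adarb2-leaning class 580, 368, 676 and 474 in the same order. Between 46.8% and 75.9% of the nuclei of a library entered neither. The sorting rested on few cut sites per nucleus. In the same order of libraries, the median Lhx6-leaning nucleus had 10, 2, 3 and 2 cut sites over Lhx6. The median Adarb2-leaning nucleus had 3, 2, 2 and 2 over Adarb2. The other markers followed the sorting. The MGE list without Lhx6 summed to 405 to 754 CPM in Lhx6-leaning and 313 to 529 CPM in Adarb2-leaning nuclei, and was higher in Lhx6-leaning nuclei in each library. The CGE list without Adarb2 summed to 126 to 216 CPM and 174 to 311 CPM, and was higher in Adarb2-leaning nuclei in each library. Residual Lhx6 accessibility in Adarb2-leaning nuclei was 61.2 and 0 CPM in cortex replicates 1 and 2 and 30.9 and 11.0 CPM in hippocampus replicates 1 and 2. Deeper nuclei can hold some cut sites over Lhx6 and still fall short of the sorting limit, whereas shallow ones can hold few or none. This residue therefore does not rank the libraries by how clean the sorting was. In cortex replicate 1 the MGE list without Lhx6 had 754 CPM in Lhx6-leaning and 529 CPM in Adarb2-leaning nuclei. The CGE list without Adarb2 had 177 and 311 CPM there. The oligodendrocyte-lineage list summed to 266 to 321 CPM in Lhx6-leaning and 259 to 304 CPM in Adarb2-leaning nuclei, and the excitatory list to 33.5 to 62.8 CPM and 31.4 to 56.5 CPM.

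Cut sites were summed per library and class and the 8 sums were fitted with edgeR's quasi-likelihood test with library as a block, over all 46698 common regions. Of the 4513 desert regions, 820 (18.2%) were higher in Lhx6-leaning nuclei at an adjusted p under 0.05, against 8.40% of all common regions tested. Another 614 (13.6%) were higher in Adarb2-leaning nuclei, against 8.16% of all. Both directions together made 1434 members, or 31.8%, against 16.6% of all common regions. The median log2 fold change over all desert regions was 0.06, and that over all common regions was -0.01. Of the called members, 1358 (94.7%) had the same sign in all 4 libraries, against 29.6% of those not called, but the calls were made on these same libraries. Changes were larger on the Adarb2 side, with a median log2 fold change of -0.94 among called members and 281 beyond 2-fold, against 0.74 and 126 members on the Lhx6 side.

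The called share was larger farther from genes. It was 27.3% at 100 to 200 kb, 33.7% at 200 to 500 kb, 40.3% at 500 to 1000 kb and 51.1% beyond, while the median level fell only from 10.2 to 8.96 CPM. Of the 90 members over 1000 kb from a start, 39 were higher in Lhx6-leaning nuclei, 7 in Adarb2-leaning nuclei and 44 in neither. Members within 1 kb of a non-coding start were called in 23.3% of cases and the rest in 32.4%. Among common regions of other kinds, 9.89% and 8.89% of those in gene bodies, 8.65% and 9.37% of those between genes within 100 kb of a start, and 1.22% and 3.40% of those at gene starts were called, Lhx6-leaning first. The differences between these shares were not tested, since neighboring regions are not independent.

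**Figure D2:**
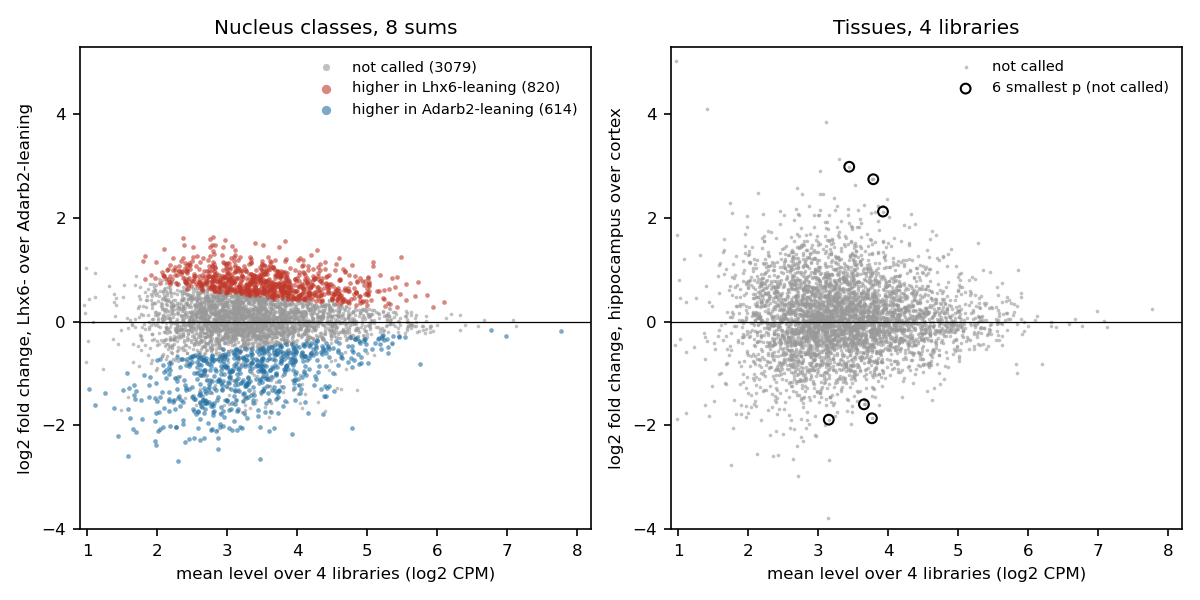
Each point is a desert region, with its mean level over 4 libraries (log2 CPM) on the x axis. Left, log2 fold change of Lhx6-leaning over Adarb2-leaning nuclei (820 red, 614 blue, 3079 gray not called); right, hippocampus over cortex, with none called and the 6 regions of smallest p ringed. The ribosomal RNA region lies beyond the right edge of both panels.

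On the Lhx6 side, the member with the largest change by the naming rule was chr8:103144124-103144939, which lay 358 kb upstream of Cdh11, a cell adhesion molecule of the cadherin family, and at the start of the lincRNA gene Gm45391. Lhx6-leaning nuclei had 22.8, 31.6, 19.0 and 11.5 CPM in cortex replicates 1 and 2 and hippocampus replicates 1 and 2, and Adarb2-leaning nuclei 8.26, 12.6, 5.83 and 3.04 CPM. Lhx6-leaning nuclei were higher within every library, although the highest Adarb2-leaning value (cortex replicate 2) exceeded the lowest Lhx6-leaning value (hippocampus replicate 2). The log2 fold change was 1.55 ± 0.15 (SE, adjusted p = 1.84e-05, edgeR).

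The next, chr4:15634528-15636214, lay 245 kb upstream of Calb1, which encodes the calcium-binding protein calbindin found in subsets of interneurons, and held the pseudogene Gm11857. Lhx6-leaning nuclei had 19.9, 15.4, 9.96 and 10.3 CPM in the same order of libraries, and Adarb2-leaning nuclei 9.08, 5.23, 3.19 and 2.13 CPM. The lowest Lhx6-leaning value exceeded the highest Adarb2-leaning value. The log2 fold change was 1.51 ± 0.20 (SE, adjusted p = 0.000133, edgeR).

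Another member, chr11:25318255-25319260, lay in the desert between Bcl11a, a zinc finger transcription factor gene of developing forebrain neurons, and 5730522E02Rik, 1240 kb and 892 kb from their starts, over the lincRNA genes 4933427E13Rik and Gm12069. It had 22.1, 23.8, 10.5 and 9.02 CPM in Lhx6-leaning and 9.73, 7.67, 4.30 and 1.67 CPM in Adarb2-leaning nuclei (log2 fold change 1.47 ± 0.19 SE, adjusted p = 0.00013, edgeR). Both classes were higher in cortex than in hippocampus there. The remaining members named on this side were chr12:10684866-10685665 between Rdh14 and Kcns3, a potassium channel subunit gene, chr4:81051418-81052314 between Lurap1l and Mpdz, and chr7:129136857-129138245, 119 kb upstream of Plpp4. Their log2 fold changes were 1.44, 1.39 and 1.29, and each was higher in Lhx6-leaning nuclei in all 4 libraries.

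On the Adarb2 side, the largest change by the same rule was at chr4:33780341-33781499, 143 kb upstream of Cnr1, which encodes the cannabinoid receptor CB1 of cholecystokinin-type interneurons. Adarb2-leaning nuclei had 18.03, 12.9, 39.2 and 38.8 CPM in cortex replicates 1 and 2 and hippocampus replicates 1 and 2, and Lhx6-leaning nuclei had 1.88, 1.27, 11.6 and 13.5 CPM. Within each tissue the classes did not overlap, and both classes were higher in hippocampus. The log2 fold change of Lhx6-leaning over Adarb2-leaning nuclei was -2.17 ± 0.33 (SE, adjusted p = 0.00681, edgeR), and with a stricter sorting of nuclei it was -2.79 with an adjusted p of 0.0514.

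At chr8:35933345-35934231, 107 kb upstream of Cldn23 and 161 kb from Prag1, Adarb2-leaning nuclei had 22.1, 16.4, 19.7 and 25.7 CPM and Lhx6-leaning nuclei 2.74, 3.99, 5.85 and 8.86 CPM. The groups of 4 values did not overlap, and the log2 fold change was -2.06 ± 0.22 (SE, adjusted p = 0.000101, edgeR). The desert between Pfkp and Adarb2 held chr13:7206228-7207287, 996 kb from the start of Adarb2, at 39.3, 73.3, 41.2 and 47.9 CPM in Adarb2-leaning and 5.66, 15.4, 14.4 and 14.9 CPM in Lhx6-leaning nuclei (log2 fold change -2.04 ± 0.22 SE, adjusted p = 0.00148, edgeR). It was the most accessible of the 12 members named by class.

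The other 3 were chr16:72071915-72072540, 236 kb upstream of Robo1 (a guidance receptor), chr12:51001682-51002740 between Prkd1 and G2e3, and chr18:40083110-40083888, 136 kb from Yipf5, with log2 fold changes of -1.81, -1.77 and -2.11. All were lower in Lhx6-leaning nuclei in each library. The Yipf5 member was at the threshold (adjusted p = 0.04997), and without cortex replicate 2 its adjusted p was 0.172 and that of the Robo1 member 0.0973. In RefSeq, where Robo1 starts farther upstream, this member lay inside that gene.

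**Figure D3:**
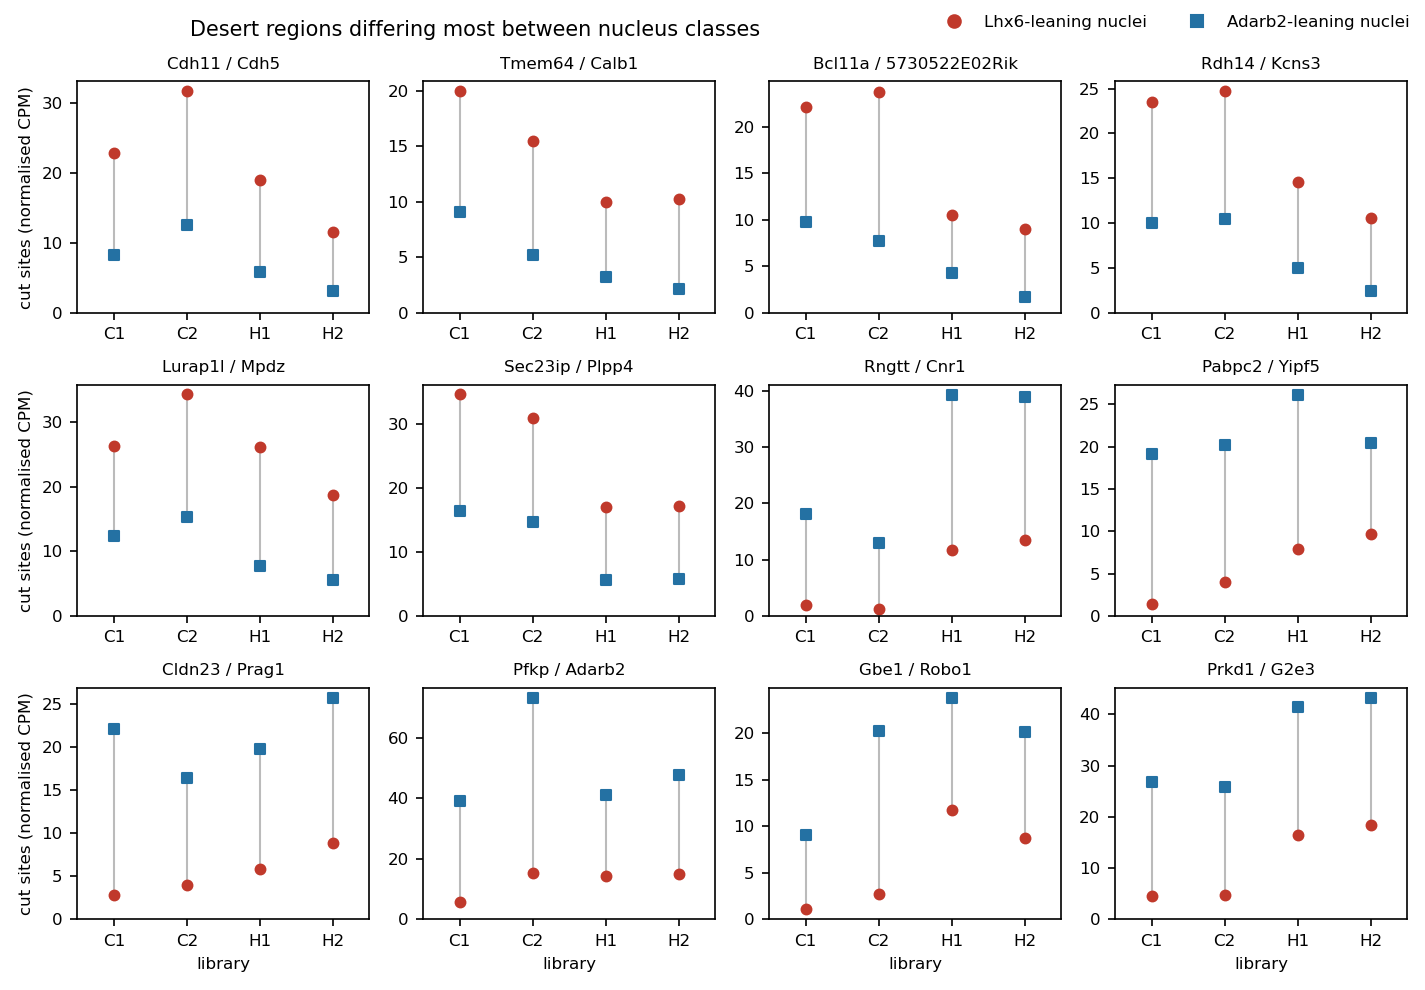
Normalized CPM of the 12 desert regions named by class, 1 panel each titled with the flanking protein-coding genes, in Lhx6-leaning (red circles) and Adarb2-leaning nuclei (blue squares) of cortex 1 and 2 (C1, C2) and hippocampus 1 and 2 (H1, H2). A gray line joins the classes of a library, and the first 6 panels have red above blue and the last 6 blue above red in every library.

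The classes of a library share its peaks, so the base pairs counted in a region were the same for both. With library left out of the model as a block, none of the members was called, nor any other common region. In that fit 809 members (17.9%) had an unadjusted p under 0.05 by edgeR, against 7.67% of all common regions. Among the 1554 members with at least 50% of their length covered in each library, 586 (37.7%) were called. Of these, 368 were higher in Lhx6-leaning and 218 in Adarb2-leaning nuclei, against 1795 and 1415 of the 19533 common regions so covered.

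Among called members in deserts beside interneuron marker genes, most were higher in the class of the marker. Members flanking a gene of the CGE list were higher in Adarb2-leaning nuclei in 17 of 35 cases and lower in 1. Members flanking a gene of the MGE list were higher in Lhx6-leaning nuclei in 20 of 45 cases and lower in 5. Over all desert regions the shares were 18.2% higher in Lhx6-leaning and 13.6% in Adarb2-leaning nuclei. Counted by nearest gene, as for the gene lists below, the MGE list had 22 members. Of these, 6 (27.3%) were higher in Lhx6-leaning and 5 (22.7%) in Adarb2-leaning nuclei, so the lean of the flanks was mostly absent. The CGE list had 12 by nearest gene, with 1 (8.33%) and 5 (41.7%). The 5 lower members flanking the MGE list all lay beside Maf, a transcription factor gene of MGE-derived interneurons. Its desert held 19 members, 5 of them higher in Lhx6-leaning nuclei. By nearest gene Maf had 14, with 2 higher in Lhx6-leaning and 5 in Adarb2-leaning nuclei. Both lists contain a gene used to sort the nuclei. Around Adarb2 itself, 6 of 8 members were higher in Adarb2-leaning nuclei and the median log2 fold change was -1.10. Around Cnr1 it was 5 of 11, around Nr2f2, a nuclear receptor gene of the caudal eminence, 3 of 8 with 1 in the other direction, and around Prox1, a homeobox gene of CGE-derived interneurons, 2 of 5.

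On the MGE side, members flanking Sox6, a transcription factor gene required for MGE-derived interneurons, were higher in Lhx6-leaning nuclei in 6 of 11 cases. Those around Satb1, a chromatin organizer gene of the same lineage, were so in 6 of 10. Sox6 was the nearest gene of 1 of the 11 and Satb1 of 7 of the 10. The desert between Rtp4 and Sst, which encodes the neuropeptide somatostatin, held 4 members, of which 3 were higher in Lhx6-leaning nuclei and 0 had Sst as nearest gene. One of them, chr16:23652519-23654283, lay 237 kb from the start of Sst and had the smallest adjusted p of all desert regions. It is named here after its values were seen. Lhx6-leaning nuclei had 51.0, 60.8, 69.2 and 61.0 CPM in cortex replicates 1 and 2 and hippocampus replicates 1 and 2, and Adarb2-leaning nuclei 21.1, 26.2, 29.9 and 24.5 CPM. The 4 libraries gave nearly the same contrast without overlap (log2 fold change 1.25 ± 0.07 SE, adjusted p = 1.35e-07, edgeR).

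Nearest genes spread widely. The 4513 members had 1573 different nearest protein-coding genes, 600 of them nearest to a single member and 46 to at least 10. The gene nearest to most members was Zfp608, a zinc finger gene, with 23 members (5 higher in Lhx6-leaning and 4 in Adarb2-leaning nuclei). It was followed by Eipr1 with 18 (1 and 7), by Abcc12 (4 and 3), Nmur2 (5 and 1) and the high-mobility-group gene Tox3 (5 and 2) with 17 each, and by Klf14 with 16 and none called. Dhx35, Galc, Kazn and Vrk1 were each nearest to 15 members.

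Of the 70 transcription regulators of developing forebrain listed, 33 were nearest to 149 members, and 35 (23.5%) of these members were higher in Lhx6-leaning and 19 (12.8%) in Adarb2-leaning nuclei, against 18.2% and 13.6% of all desert regions. Counted by flanking gene, the list had 330 members, of which 67 were higher in Lhx6-leaning and 44 in Adarb2-leaning nuclei. These shares were closer to those of all desert regions. Members nearest to Satb1 (4 of 7), Tox (3 of 5) and Ebf1 (2 of 3) were higher in Lhx6-leaning nuclei with none the other way. For Id2, an inhibitor of basic helix-loop-helix factors, 2 of 5 were higher in Adarb2-leaning nuclei, and for Tshz1 2 of 7. None of the 4 members nearest to Lmo4 and none of the 3 nearest to Sox4 passed the test, and Mef2c, nearest to 12, had 2 and 1.

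Of the 82 cell adhesion and axon guidance genes listed, 45 were nearest to 126 members, of which 42 (33.3%) were higher in Lhx6-leaning and 16 (12.7%) in Adarb2-leaning nuclei, against the same 18.2% and 13.6% of all desert regions. The median log2 fold change of these members was 0.31, against 0.06 over all desert regions. Their distances from the gene start ran from 136 to 217 kb for Cdh13 and from 843 to 1722 kb for Cdh8. Over all desert regions, 304 of 2075 members at 100 to 200 kb were higher in Lhx6-leaning nuclei, and 39 of 90 over 1000 kb. The part of distance in the shares of this list was not tested. Counted by flanking gene, the list had 358 members, of which 93 were higher in Lhx6-leaning and 43 in Adarb2-leaning nuclei. The share on the Lhx6 side was smaller than by nearest gene. The teneurin genes Tenm3 and Tenm4, which encode synaptic adhesion proteins, were nearest to 12 and 8 members, of which 6 and 4 were higher in Lhx6-leaning nuclei. Among the cadherin genes, members were higher in Lhx6-leaning nuclei in 3 of 4 cases for Cdh9, 3 of 5 for Cdh13 and 2 of 3 for Cdh10, with none the other way. Calls went in both directions for Cdh8 (3 and 1 of 7), Cdh20 (1 and 1 of 3) and Cdh11 (1 and 2 of 8, Lhx6-leaning first). Robo2 and Robo1 were nearest to 5 and 6 members, with 1 each higher in Adarb2-leaning nuclei and, for Robo1, 1 higher in Lhx6-leaning nuclei.

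Of the 242 ion channel and neurotransmitter receptor genes listed by symbol, 46 were nearest to 115 members, of which 26 (22.6%) and 18 (15.7%) were higher in Lhx6-leaning and Adarb2-leaning nuclei, near the 18.2% and 13.6% of all desert regions. Counted by flanking gene, the list had 265 members, with 58 and 41 in the same order. Kcnab2, an auxiliary potassium channel subunit gene, was nearest to 12 members, with 5 higher in Adarb2-leaning nuclei and none in Lhx6-leaning. Members nearest to Grin3a, an NMDA receptor subunit gene, were higher in Lhx6-leaning nuclei in 3 of 4 cases, those nearest to the dopamine receptor gene Drd1 in 3 of 9, and those nearest to the muscarinic receptor gene Chrm3 in 3 of 7 with 2 in the other direction. Nearest position alone does not tell which gene a region acts on.

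Desert regions also differed from other common regions in sequence. Over 500 bases around the center, their median GC content was 46.4%, against 50.2% for common regions in gene bodies, 49.8% between genes within 100 kb of a start and 64.6% at gene starts. Their median CpG ratio (observed over expected) was 0.234, against 0.248, 0.262 and 0.800 in the same order. Members higher in Lhx6-leaning nuclei were poorer in GC, with a median of 43.8%, than those higher in Adarb2-leaning nuclei (47.2%) and those not called (47.0%). A median of 8.6% of the bases was masked as repeat, and 1.57% of the members were masked over more than 50% of the window.

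Short sequence patterns were counted on both strands of the same windows, with overlaps allowed. The SOX core ACAATG was present in 32.4% of members higher in Adarb2-leaning nuclei, 18.9% of those higher in Lhx6-leaning nuclei, 22.6% of those not called and 17.6% of all common regions. The AP-1 core TGANTCA went the other way, with 32.0% on the Lhx6 side, 21.7% on the Adarb2 side, 24.5% of those not called and 17.9% of all. The MAF half-site TGCTGAC was found in 15.0% of members on the Lhx6 side, 9.77% on the Adarb2 side and 12.4% of those not called (10.3% of all). The E-box CAGATG was found in 58.4% and 50.5%, and in 45.7% of those not called (38.2% of all). The homeodomain core TAATTA was found in 19.0% and 21.8%, and in 15.1% of those not called (9.33% of all). The core of the CTCF motif, the site of an architectural factor, was present in 0.122% and 0.814% of the called members, in 5.36% of those not called and in 5.51% of all common regions. The nuclear receptor core AGGTCA (17.1% and 19.5%), the MEIS core TGACAG (33.9% and 37.6%), the octamer ATGCAAAT (8.29% and 7.65%) and the MEF2 core TAAAAATA (10.6% and 8.31%) lay within 4 percentage points of each other. These shares are descriptions, and the sets differ in base composition as given above.

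Desert regions were spread unevenly over the intervals between genes, which differ in length, and clustering was not tested. They fell into 1184 intervals between neighboring protein-coding genes, of which 386 held a single member and 96 at least 10. The 5 fullest intervals differed in how their members behaved. The most, 30 members over 0.659 Mb, lay between Eipr1 and Myt1l, a zinc finger gene of neuronal identity (chr12:28869866-29528383), where 7 were higher in Adarb2-leaning and 1 in Lhx6-leaning nuclei. Between Nmur2 and Gria1, a glutamate receptor subunit gene, 7 of 25 were higher in Lhx6-leaning and 1 in Adarb2-leaning nuclei. Between Matn1 and Ptpru, 8 and 5 of 23 went in opposite directions within 0.813 Mb, with log2 fold changes from -1.38 to 1.26. Between Kazn and Prdm2, 2 of 23 were called in each direction. Between Klf14 and Mkln1, which holds the Lncpint start, none of 22 was called and all log2 fold changes lay between -0.28 and 0.16, although the median level of 19.7 CPM was the highest of the 5 intervals. Over all intervals, 331 held at least 2 called members, and 157 held calls in both directions.

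**Figure D4:**
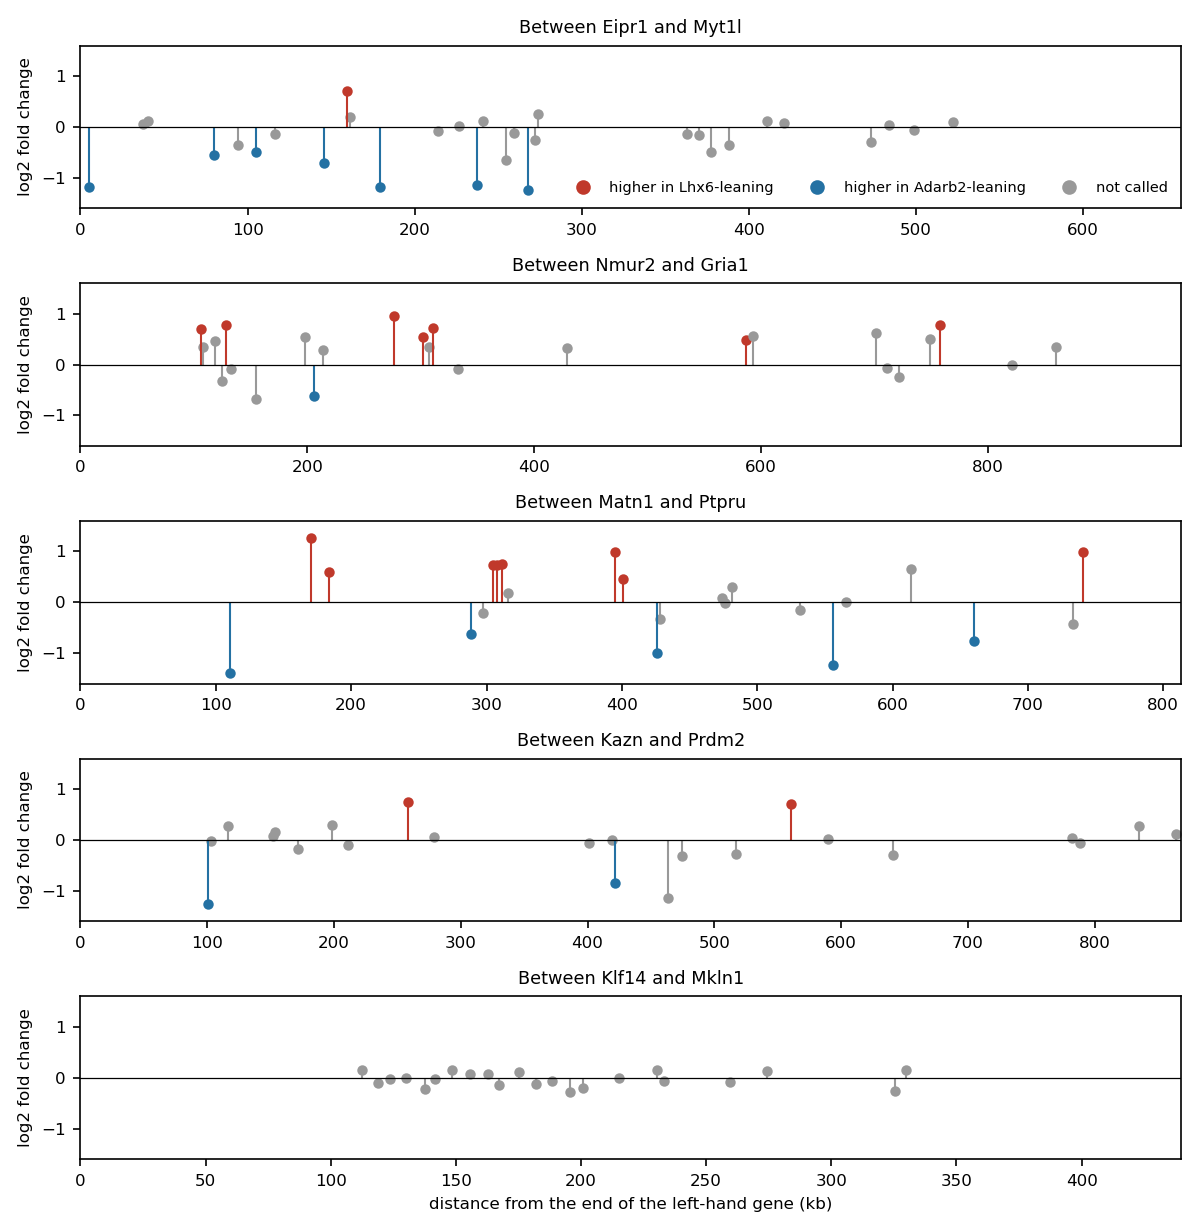
Log2 fold change of Lhx6-leaning over Adarb2-leaning nuclei for the desert regions of the 5 fullest intervals, by distance from the end of the gene on the left (kb). Red and blue mark members called higher in Lhx6-leaning and Adarb2-leaning nuclei and gray those not called, and the last panel, between Klf14 and Mkln1, holds only gray points near 0.

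Next, hippocampus and cortex were compared over all nuclei, 2 libraries against 2. Some oligodendrocyte-lineage markers differed between the tissues although the sum of the list did not separate them. Sox10 had 0.443 and 2.20 CPM in cortex and 32.9 and 16.3 CPM in hippocampus, and Cnp had 22.5 and 21.6 CPM against 39.2 and 47.2 CPM. Counted in each library's own peaks, Mog had 9.30 and 0 CPM against 22.3 and 23.3 CPM. Their part in the tissue differences was not tested. None of the 4513 desert regions passed an adjusted p of 0.05 by edgeR's quasi-likelihood test, as was the case over all common regions (0% called). At an unadjusted p under 0.05 there were 670 members (14.8%), against 8.14% of all common regions. DESeq2 called 56 members higher in hippocampus and 17 higher in cortex, or 1.62% against 0.754% of all common regions. The count depended on which library was left out. Leaving out a library leaves its tissue with a single library, whose spread is then assumed to be that of the other tissue. Without cortex replicate 1, edgeR called 382 members higher in hippocampus and 47 higher in cortex (9.51% against 6.84% of all), without cortex replicate 2 it called 102 and 25 (2.81% against 1.83%), and without either hippocampus library it called none. A count of 0 in this design does not show that the tissues were alike.

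The members with the smallest p in each direction are given whether or not they pass. Higher in hippocampus was chr14:71776934-71777659, between Gfra2, a receptor gene for GDNF-family ligands, and Gm9195, 714 kb from the nearest start. It had 2.31 and 2.50 CPM in cortex and 21.4 and 17.2 CPM in hippocampus, a log2 fold change of 2.99 ± 0.30 (SE, adjusted p = 0.409, edgeR; 4.16e-08, DESeq2). At chr8:30648165-30649056, between the netrin receptor gene Unc5d and Dusp26, the levels were 5.40 and 5.89 CPM in cortex and 26.1 and 23.4 CPM in hippocampus. At chr18:27616997-27617736, 1863 kb upstream of Celf4, they were 4.18 and 2.87 CPM against 24.9 and 23.3 CPM.

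Higher in cortex was chr4:124175113-124176086, 257 kb from 4930535I16Rik and 258 kb from Rragc, with 22.1 and 20.7 CPM in cortex and 6.98 and 4.71 CPM in hippocampus. The member chr17:88335806-88336657, 104 kb upstream of Foxn2 and over the lincRNA gene AC165153.1, had 15.5 and 12.5 CPM against 3.99 and 3.52 CPM. The member chr8:90499107-90499851, 151 kb upstream of Tox3, had 18.8 and 19.0 CPM against 6.80 and 5.68 CPM. In all 6 the tissues did not overlap, and the adjusted p was 0.409 by edgeR and at most 0.00556 by DESeq2.

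Counts exist only inside a library's own peaks, so the number of base pairs counted can differ with the level. At the Gfra2 member the peaks covered 334 and 136 bp in cortex and 726 and 666 bp in hippocampus. With the covered length as an offset, its log2 fold change was 1.16. At the Tox3 member the peaks covered 745 and 533 bp in cortex and 564 and 426 bp in hippocampus, and its log2 fold change was -1.26 with the offset against -1.59 without. With the offset, none of the members was called by edgeR, and 2 had an unadjusted p under 0.05. The part of peak length in the tissue differences cannot be told apart from accessibility here. A higher sum from more open nuclei and one from more cuts per nucleus cannot be told apart either.

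The class difference itself differed between tissues at some desert regions. In the interaction test on the 8 sums, the Lhx6-leaning minus Adarb2-leaning difference was higher in hippocampus at 197 members (4.37%), against 1.85% of all common regions, and higher in cortex at 3 (0.0665%), against 0.0471%. Both directions together made 200 members (4.43%), against 1.90% of all. Of the 197, 84 were also called higher in Adarb2-leaning nuclei over all libraries, 113 were not called for class, and 0 were higher in Lhx6-leaning nuclei. DESeq2 called 48 (1.06%) and 0, against 146 and 0 of all 46698 common regions. A stricter sorting of nuclei left 83 (1.84%), 81 and 2 by direction, against 331 and 10 of 46695. Libraries carried unequal weight, and the number called was lowest without cortex replicate 1 and highest without cortex replicate 2. The median interaction over all members was 0.09 on the log2 scale. It was 0.02 and 0.10 without cortex replicates 1 and 2, and 0.13 and 0.08 without hippocampus replicates 1 and 2. The residual Lhx6 accessibility of Adarb2-leaning nuclei given above also differed between libraries, and its part in this result was not tested.

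The smallest p belonged to chr2:22101566-22102654, between Gpr158, an orphan receptor gene, and Myo3a. Lhx6-leaning nuclei had 0.973 and 2.18 CPM in cortex and 27.8 and 17.5 CPM in hippocampus, resting on 28, 12, 466 and 223 cut sites. Adarb2-leaning nuclei had 18.1 and 17.4 CPM in cortex and 35.4 and 26.8 CPM in hippocampus. Cortical Lhx6-leaning nuclei thus stood below all other sums, and the interaction on the log2 scale was 3.24 ± 0.31 (SE, adjusted p = 1.28e-09, edgeR). At chr18:41441774-41442874, between Kctd16 and Prelid2, Lhx6-leaning nuclei had 2.85 and 3.08 CPM in cortex and 36.6 and 32.4 CPM in hippocampus, and Adarb2-leaning nuclei 22.4 and 19.5 CPM against 53.0 and 44.0 CPM (interaction 2.35 ± 0.24 SE, adjusted p = 3.3e-09).

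In the other direction, chr8:86331468-86333020 between Phkb and Abcc12 had 17.9 and 17.2 CPM in Lhx6-leaning nuclei of cortex and 8.77 and 8.79 CPM in those of hippocampus, while Adarb2-leaning nuclei had 10.9 and 8.37 CPM and 12.4 and 12.2 CPM (interaction -1.28 ± 0.31 SE, adjusted p = 0.012, edgeR). Lhx6-leaning nuclei were higher in both cortex libraries and lower in both hippocampus libraries. At chr15:93895660-93897128 between Prickle1, a planar polarity gene, and Adamts20, the interaction was -1.43 ± 0.36 (SE, adjusted p = 0.0197). Neither was called by DESeq2 (adjusted p = 0.25 and 0.503) or without cortex replicate 1 (0.103 and 0.26).

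**Figure D5:**
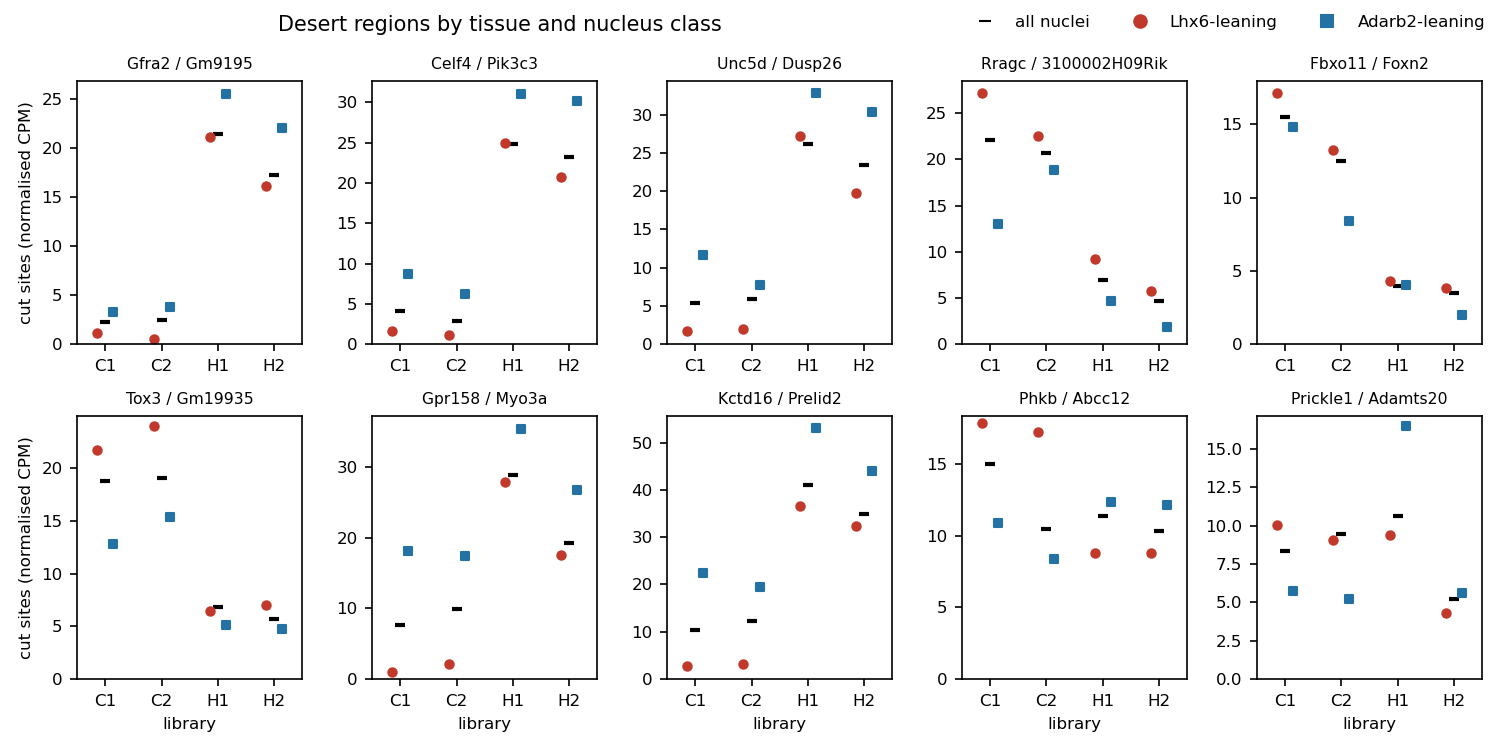
Normalized CPM of the 6 desert regions with the smallest p between tissues (first 6 panels) and the 4 named for the interaction (last 4 panels), titled with the flanking protein-coding genes, in all nuclei (black bars), Lhx6-leaning (red circles) and Adarb2-leaning nuclei (blue squares) of each library. In the Gpr158 and Myo3a panel the cortical Lhx6-leaning nuclei sit at 0.973 and 2.18 CPM, under all other points.

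Finally, the share of common-region cut sites that fell in desert regions was compared. It was 6.18% and 5.73% in cortex and 6.53% and 5.90% in hippocampus, means of 5.95% ± 0.318 and 6.21% ± 0.449 (SD, n = 2). The difference of 0.261 percentage points was within the spread between replicates (exact permutation test, two-sided, p = 0.667, where 2 against 2 libraries cannot go below 0.333). Lhx6-leaning nuclei had 6.20% and 5.79% in the cortex replicates and 6.66% and 6.09% in the hippocampus replicates, and Adarb2-leaning nuclei had 6.25%, 5.69%, 6.48% and 5.92% in the same order. The mean difference was 0.0984 points, with Lhx6-leaning nuclei higher in 3 of 4 libraries (exact sign-flip permutation test, two-sided, p = 0.25, where 4 pairs cannot go below 0.125). Without the ribosomal RNA region the difference was 0.16 points and positive in 4 of 4 libraries, at the smallest p the test allows.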

How the data were processed

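Per the labels, nuclei were isolated, sorted and processed with the 10x Genomics ATAC workflow, and the submitters' processing notes name Cell Ranger ATAC 1.2.0 and GRCm38 (mm10). For each library the authors deposited barcodes, peaks with no score, and raw, unnormalized counts (transposase cut sites for each peak in each barcode). Counts exist only inside a library's own peaks, and peaks were called in each library separately. The deposited motif tables were not used.

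Peaks were merged at 1 bp overlap, and counts were summed per region and library, or per region, library and nucleus class, since nuclei are not replicates. Gene counts for the classes were sums over common regions on the gene body and 2 kb upstream, in nuclei with at least 1000 cut sites in common regions. No doublet caller was run. edgeR 4.0.16 (robust quasi-likelihood, TMM, filterByExpr) in R 4.3.3 was fitted over all common regions, with Benjamini-Hochberg adjustment, a threshold of 0.05 and a prior count of 2. Levels are TMM-normalized CPM, and fold changes are edgeR estimates. DESeq2 1.42.0 was an alternative. On data simulated with known changes over all common regions, the class test recovered nearly all of them and the tissue test almost none. The planted changes were larger than most of those called. The simulation gave all regions the same spread and no differences between libraries except depth. It therefore does not measure how many smaller changes the class test finds. Shares were compared with exact permutation tests (Python 3.11.15, numpy 2.4.6). Sequences were read from GRCm38.p6 with pysam 0.24.0.

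The members and lists were chosen with earlier results of these data known. Regions named were the 6 with the highest mean level, the 3 with the smallest p per tissue direction, the 6 largest called class changes per direction with 1 sign in all libraries and an average log CPM above the members' median, the 2 smallest interaction p per direction and the 5 fullest intervals. Genes named were the 10 nearest to most members, list members nearest to at least 3 and genes beside named regions. The sequence patterns, the flanks of marker genes, the check against RefSeq and the shares without the ribosomal RNA region were chosen after the data were seen. Sequences shown are the first 2 regions of each class direction, chromosome 18 and the ribosomal RNA region left out. Alternatives were other size factors, no filter, DESeq2, each library left out, coverage of at least 50%, other distances (50 and 200 kb), other annotations and other sorting of nuclei.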

Additional observations from a re-analysis of the deposited data

Results flagged for a closer look

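The contrast between Lhx6-leaning and Adarb2-leaning nuclei differed between hippocampus and cortex, by a test of the difference itself, at 200 desert regions. The 4 named among them had interaction values on the log2 scale of 3.24 (chr2:22101566-22102654, between Gpr158 and Myo3a), 2.35 (chr18:41441774-41442874, between Kctd16 and Prelid2), -1.28 (chr8:86331468-86333020, between Phkb and Abcc12) and -1.43 (chr15:93895660-93897128, between Prickle1 and Adamts20). The first pair was called under every alternative run, and the second pair was not. No group had the 4 samples needed to look for a sample far from the others.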

How the results depend on the processing

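The tissue count of 0 called members was also 0 with RLE size factors, no filter on low counts, members covered at least 50%, nuclei low in pan-GABA left out, distances of 50 and 200 kb, members outside all annotated genes and members also far from RefSeq genes. It was 73 with DESeq2 and ranged from 0 to 429 with a library left out. With the replicate number as a block it was 0. Same-numbered libraries did not deviate together (correlation -0.0375), so the numbers were not taken as pairs. The covered length as an offset moved the median log2 fold change of all common regions from 0.02 to -0.25 and called 0. The class count of 1434 ranged from 1041 to 1180 with a library left out and was 586 of 1554 members covered at least 50%, 868 of 2438 members over 200 kb from starts and 0 with no library block. DESeq2 called 1527 members, of which 1420 were shared in direction. The interaction count of 200 ranged from 27 to 308 with a library left out and was 62 of members covered at least 50%, 83 with the strict gate and 48 with DESeq2. The tissue difference in the share of cut sites ranged from -0.0564 to 0.579 points with a library left out, was 1.29 points over all peaks of each library, and was 0.261 points with the replicate block (the mean difference within replicate numbers). The class difference in that share ranged from 0.0712 to 0.148 points with a library left out. The class calls named in the report were lost by 6 of 6 members on each side with no library block, and on the Lhx6 side by none otherwise. On the Adarb2 side, 6 other losses occurred, all in the Cnr1, Yipf5 and Robo1 members. Depth limits the shallow classes. Among the members named by class, a sum can rest on as few as 7 cut sites (Lhx6-leaning nuclei of cortex replicate 2 at the Cnr1 member). In the same nuclei the sum was 3 cut sites at the Gfra2 member named by tissue. It was 0 CPM at chr12:118457695-118458367, a called member flanking Sp8.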
